A study of Rattus norvegicus with 4 samples.

Results

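The p53 pathway was examined in NR8383 cells, a macrophage line established from rat lung lavage, through 9 genes that the transcription factor p53 activates: Cdkn1a, Gadd45a, Btg2, Mdm2, Ccng1, Phlda3, Fas, Rrm2b and Sesn2. Every probe whose RefSeq accession matched one of these genes was taken, which gave 11 probes for the 9 genes, out of 16581 genes named on the array. The cells had been exposed for 4 h to Printex90, a commercial carbon black, at 0.9 cm2/cm2 with the label ALI, which the labels do not spell out, and were described as used after 20 passages. They grew as a mix of attached and floating cells, in flasks per the labels. The exposed group holds 4 biological replicates with 1 single-colour Agilent array each. The unexposed cells named in the series design were not analysed here, so every value below is a level in exposed cells, and none is a change caused by the particles.

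p53 is a transcription factor that cells hold at a low protein level and stabilise after DNA damage and other stress. Its targets include inhibitors of cell division, repair factors, death receptors, and the genes whose products restrain p53 itself, so that the response ends by negative feedback. Control of p53 acts mostly on the protein, through the ubiquitin ligase MDM2. In lung macrophages the pathway is of interest because inhaled particles can produce oxidants that damage DNA.

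The promoter windows of Cdkn1a, Gadd45a and Ccng1 are shown because they were the 3 of 8 available member promoters that hold a p53 half-site, the 10-base unit of the p53 response element. Each is the RefSeq window of 250 bases before to 50 bases after the gene start in the rat build GRCr8, 300 bases in all, written 5′ to 3′ along the gene's strand with the half-site in capitals. The windows are chr20:7150682-7150981 on the plus strand for Cdkn1a, chr4:97486750-97487049 on the minus strand for Gadd45a and chr10:25684827-25685126 on the minus strand for Ccng1.
Cdkn1a: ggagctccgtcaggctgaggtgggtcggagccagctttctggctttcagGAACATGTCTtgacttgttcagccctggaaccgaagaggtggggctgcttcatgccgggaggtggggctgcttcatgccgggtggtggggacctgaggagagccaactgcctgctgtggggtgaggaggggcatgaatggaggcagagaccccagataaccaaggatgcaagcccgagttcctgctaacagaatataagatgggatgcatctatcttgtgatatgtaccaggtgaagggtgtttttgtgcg
Gadd45a: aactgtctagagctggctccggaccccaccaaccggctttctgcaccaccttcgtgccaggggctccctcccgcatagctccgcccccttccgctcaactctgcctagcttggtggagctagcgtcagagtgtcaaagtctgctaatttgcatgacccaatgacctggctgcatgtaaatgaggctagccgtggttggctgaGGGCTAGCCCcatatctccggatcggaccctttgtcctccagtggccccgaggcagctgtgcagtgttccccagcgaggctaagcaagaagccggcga
Ccng1: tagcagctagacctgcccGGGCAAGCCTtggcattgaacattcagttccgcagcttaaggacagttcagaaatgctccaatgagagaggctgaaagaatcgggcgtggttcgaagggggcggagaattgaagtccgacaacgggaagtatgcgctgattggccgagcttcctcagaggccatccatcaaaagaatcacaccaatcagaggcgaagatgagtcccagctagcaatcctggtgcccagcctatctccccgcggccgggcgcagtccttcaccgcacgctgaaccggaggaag

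The half-site of Cdkn1a, GAACATGTCT, began 201 bases before the gene start. That of Gadd45a, GGGCTAGCCC, began 48 bases before the start, and that of Ccng1, GGGCAAGCCT, 232 bases before it. The motif was searched by its name on both strands, on which it reads alike because it is its own reverse complement. It was present in 3 of the 8 member promoters (37.5%) and in 7.98% of all 33469 rat promoter windows. Of 59 windows of the further p53 network genes listed below, 8 (13.6%) held it. The member share rests on few promoters and was not tested. Only exact matches were counted. No member promoter held 2 exact half-sites at most 13 bases apart, the arrangement of a full element. Of all the windows, 20 (0.0598%) did. In the Cdkn1a window the bases directly after the half-site, tgacttgttc, differ from the motif only at the first base. They were therefore not counted as a half-site. The windows of Btg2, Mdm2, Phlda3, Fas and Sesn2 held no match to these letters, and no window was used for Rrm2b. A match is a description of the sequence, not evidence of binding, and other starts or introns of these genes were not searched.

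A level is the log2 processed signal of a probe minus the 75th percentile of its array, so 0 lies at that percentile, which was an intensity between 83.77 and 127.1 on the 4 arrays. Calls of well above background are those the scanner software made for each spot. Levels of different probes depend on the probe as well as on the mRNA, so no order between probes is drawn. In RNA from a whole culture, fewer cells of a type and less RNA per cell cannot be told apart. The named genes well above background numbered 8917 to 9985 per array, no spot was saturated, and of 308 negative-control spots 0 passed that call on all 4 arrays and 11 on at least 1. Of 10 macrophage markers 9 were well above background on all 4 arrays, whereas 0 of 6 epithelial markers were. Of markers of other cells, Dcn, Pecam1 and Cdh5 were well above background on all 4 arrays and the remaining measured ones of fibroblasts, endothelium, T cells, B cells and neutrophils were not. The part of other cells in the levels below was not tested.

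In the exposed cells, 6 of the 9 p53 target genes were well above background on all 4 arrays, namely Cdkn1a, Gadd45a, Mdm2, Ccng1, Phlda3 and Sesn2. The remaining 3, Btg2, Fas and Rrm2b, were well above background on no array. Over all 16581 named genes, 50.8% were well above background on all 4 arrays and 36.9% on none. The share of the 9 genes, 66.7%, rests on few genes and was not tested. No member was in between, so each gave the same call on every array. Of the 6 detected genes Cdkn1a has 2 probes, and both passed, while the other 5 rest on 1 probe each.

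**Figure D1:**
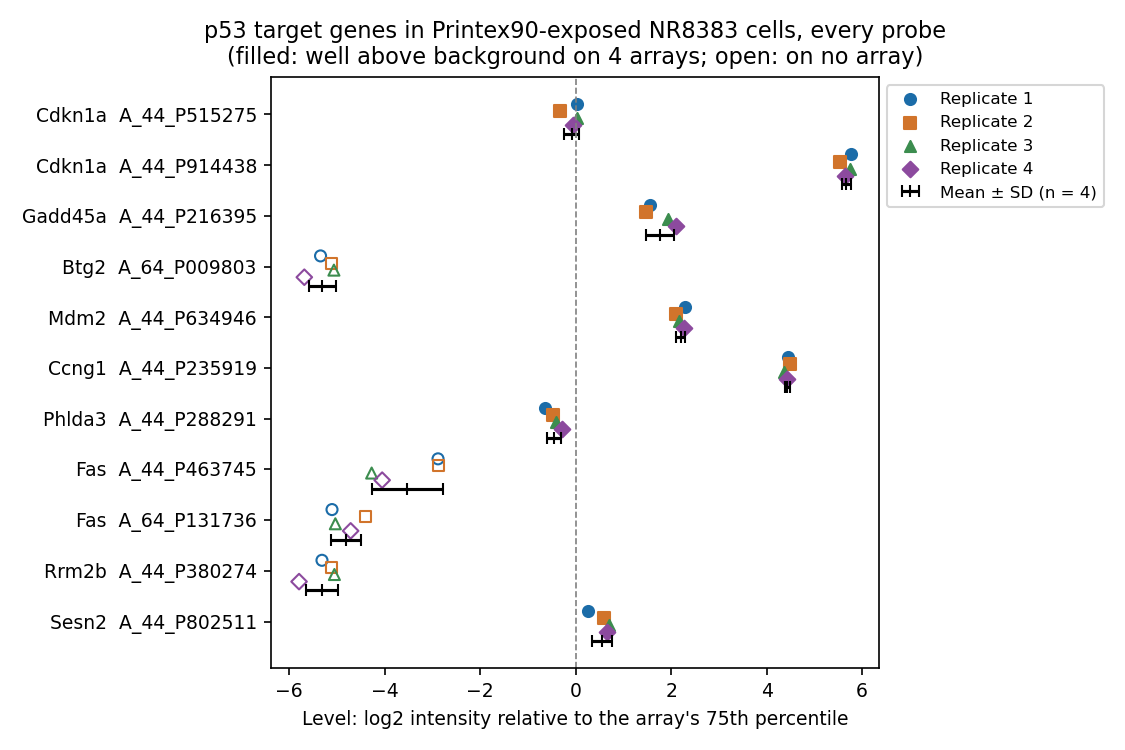
Levels of the 11 probes of 9 p53 target genes on the 4 arrays. The x axis is log2 intensity relative to the array's 75th percentile, each row is a probe, symbols are replicates and bars are the mean ± SD. The filled symbols of the 7 probes well above background lie close together, while the open symbols of Btg2, Fas and Rrm2b lie at -2.88 or below.

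Among the growth-arrest genes, Cdkn1a, which encodes p21, the inhibitor of cyclin-dependent kinases through which p53 stops the cell cycle, had 2 probes with very different signals. Probe A_44_P914438 had an intensity of 5417, 3899, 5399 and 6369 on replicates 1 to 4, which gave levels of 5.77, 5.54, 5.74 and 5.65. Probe A_44_P515275, matched to the same accession NM_080782, had an intensity of 100.6, 67.31, 103.9 and 121.8 and levels of 0.02, -0.32, 0.04 and -0.06. Both probes were well above background on all 4 arrays and both were lowest on replicate 2. Their mean levels were 5.67 ± 0.10 and -0.08 ± 0.16 (SD, n = 4), and an average of both would describe neither probe. The disagreement therefore concerns the size of the signal, while the difference between the highest and the lowest array was 1.17-fold for the first probe and 1.28-fold for the second.

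Probe A_44_P914438 of Cdkn1a is printed 10 times on each array, which shows the error of a single spot. On replicate 1 its 9 usable spots ranged from 5196 to 5582 in intensity with a median of 5446. Replicate 2 gave 9 usable spots from 2962 to 4343 with a median of 4033, replicate 3 gave 10 spots from 5140 to 5651 with a median of 5423, and replicate 4 gave 10 spots from 5685 to 7329 with a median of 6171. Before scaling, every usable spot of replicate 2 was thus below, and every spot of replicate 4 above, all usable spots of the other arrays. After scaling to the array percentile the median spot levels were 5.78, 5.59, 5.75 and 5.60, and the spots of replicate 4, from 5.48 to 5.85, overlapped those of each other array. The highest spot of replicate 2, at 5.70, was still under the lowest of replicate 1, at 5.71, but it lay above the lowest of replicate 3, at 5.67.

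The spot SD of Cdkn1a on the log2 scale was 0.030 on replicate 1, 0.164 on replicate 2, 0.046 on replicate 3 and 0.129 on replicate 4. The 1067 detected probes that are printed 10 times had a median spot SD of 0.109, 0.117, 0.076 and 0.122 on the same arrays. The lowest spot of replicate 2, at 2962, lies at row 63 and column 31, where neighbouring spots were also low on that array, by a median deviation of -0.31. At that position the spot of replicate 1, at 7187, had been left out as an outlier, and neighbouring spots there stood at 0.22. The left-out spot of replicate 2, at 6129, lies in a region marked as bright, where neighbours stood at 0.31 on that array. With all flagged spots of the arrays kept, replicate 4 became the lowest array for this probe, at a deviation of -0.12 against -0.03 in the main processing. None of the 10 spots of this probe had been left out on replicate 4. The other detected member probes also had lower deviations on replicate 4 in that setting, Ccng1 for example -0.08 against -0.01. The order of the arrays thus depends on the spot filter, which is applied to the whole array.

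**Figure D2:**
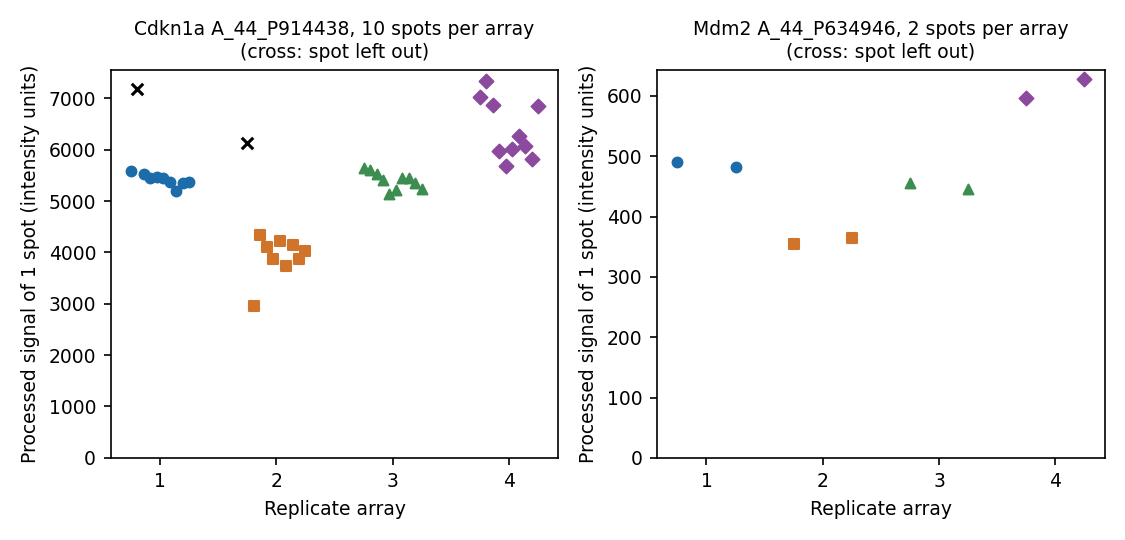
Single-spot processed signals of Cdkn1a probe A_44_P914438 (10 spots per array) and Mdm2 probe A_44_P634946 (2 spots per array) on the 4 replicate arrays, in intensity units before scaling between arrays. Crosses mark the 2 Cdkn1a spots left out, at 7187 on replicate 1 and 6129 on replicate 2. The usable spots of replicate 2 are lowest and those of replicate 4 highest for both probes.

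Gadd45a, a stress sensor that binds PCNA and p21 and takes part in growth arrest and repair, had the largest SD of the detected members in the main processing and in 6 of the 7 alternatives. Its single probe had an intensity of 293.7, 231.8, 388.4 and 544.5 on replicates 1 to 4 and levels of 1.56, 1.47, 1.94 and 2.10, with a mean of 1.77 ± 0.30 (SD, n = 4). Replicates 3 and 4 were both above replicates 1 and 2, and the highest array was 1.55-fold above the lowest. This split was found under the main processing and under each of the 7 other ways of processing the levels. Its SD of 0.301 was larger than that of 91.8% of the 500 detected probes closest to it in mean level, whose median SD was 0.152.

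The spots around Gadd45a moved the same way on replicates 2, 3 and 4, but not on replicate 1. Well-detected neighbours within 8 rows and 4 columns had median deviations of 0.04, -0.22, 0.16 and 0.14 on replicates 1 to 4, against -0.21, -0.30, 0.18 and 0.33 for Gadd45a itself. With the neighbours' median subtracted, the deviations of Gadd45a were -0.18, -0.07, 0.10 and 0.16, its SD was 0.155 and its highest array was 1.26-fold above the lowest. In that setting the SD of Gadd45a was below those of Sesn2, at 0.183, and Phlda3, at 0.178, so its rank was lost, while replicates 3 and 4 were still its higher arrays. This alternative was chosen after the data were seen, and the part of position in the split was not tested.

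Btg2, an antiproliferative p53 target that acts on mRNA decay, was not well above background on any array. Its probe, printed 2 times, had a mean intensity of 2.457, 2.409, 3.031 and 2.478 on replicates 1 to 4. The 95th percentile of the negative-control spots was 3.407, 3.016, 3.507 and 3.311 on the same arrays, so the probe was below that percentile on all 4. Its measured mean level was -5.30 ± 0.28 (SD, n = 4), and it passed the less strict detection flag on no array either.

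The feedback genes Mdm2 and Ccng1 and the survival-signal inhibitor Phlda3 were all well above background. Mdm2, the ubiquitin ligase that marks p53 for degradation, had an intensity of 486, 358.6, 450.8 and 612.4 and levels of 2.29, 2.10, 2.16 and 2.27 on replicates 1 to 4, with a mean of 2.20 ± 0.09 (SD, n = 4). The arrays lay within 1.14-fold of each other. Its 2 spots read 481.4 and 490.7 on replicate 1, 353.7 and 363.6 on replicate 2, 446 and 455.7 on replicate 3, and 596.6 and 628.7 on replicate 4. Like both probes of Cdkn1a, Mdm2 was lowest on replicate 2, and it was so under all 8 ways of processing, though not always clearly. With the 75th percentile over detected probes as scaling point, replicates 2 and 3 both deviated by -0.08. With quantile normalization they deviated by -0.08 and -0.07.

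Ccng1, cyclin G1, which helps a phosphatase to activate MDM2, had the smallest SD of the members in the main processing. It had an intensity of 2161, 1881, 2073 and 2719 and levels of 4.44, 4.49, 4.36 and 4.42 on replicates 1 to 4, with a mean of 4.43 ± 0.05 (SD, n = 4). The arrays differed by at most 1.09-fold, and the SD of 0.054 was larger than that of only 6.4% of the 500 detected probes closest in mean level. Under the 7 other ways of processing the SD of Ccng1 ranged from 0.035 to 0.291. The value of 0.291 came with the array median as scaling point, where the median SD of all detected probes was 0.388. Ccng1 still had the smallest SD of the members there. With quantile normalization it was 0.102, above 0.064 for Cdkn1a probe A_44_P914438 and 0.089 for Mdm2. Its place as the member with the smallest SD therefore depends on the scaling and background correction.

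Phlda3, which competes with the kinase AKT for membrane lipids and so limits its activation, was detected on every array. Its intensity was 64.16, 59.95, 76.46 and 104.9 on replicates 1 to 4, with levels of -0.63, -0.48, -0.40 and -0.28 and a mean of -0.45 ± 0.15 (SD, n = 4). Replicates 3 and 4 were above replicates 1 and 2 under all 8 ways of processing, though under 2 of them only narrowly. The highest-to-lowest difference was 1.28-fold in the main one. With the array median as scaling point, replicates 1 and 4 both deviated by -0.09. With normexp, replicates 2 and 4 deviated by 0.01 and 0.02, and the arrays lay within 1.07-fold. The SD of 0.149 was below the median of 0.203 for detected probes of like level.

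Sesn2, a sestrin that restrains the growth kinase complex mTORC1 under stress and is also induced by the integrated stress response, was detected on every array as well. Its intensity was 118, 127, 163.4 and 200.3 on replicates 1 to 4, its levels were 0.25, 0.60, 0.69 and 0.66, and its mean was 0.55 ± 0.21 (SD, n = 4). Replicate 1 was lowest, 0.30 under the mean of the 4 arrays, and the other 3 arrays lay close together. Its neighbours deviated by -0.01, -0.01, 0.03 and 0.00 on the same arrays. Sesn2 rests on 1 spot per array, and the part of that spot or of its position in the low value was not tested. Replicate 1 was lowest for Sesn2 and for Phlda3 under 7 of the 8 ways of processing each. Mdm2 and probe A_44_P914438 of Cdkn1a were highest on replicate 1 here, which held under 4 of 8 ways for Mdm2 and 5 of 8 for that Cdkn1a probe.

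Fas, the death receptor by which p53 links DNA damage to caspase activation, was well above background on no array by either of its 2 probes. Probe A_44_P463745 had an intensity of 13.5, 11.41, 5.24 and 7.667 on replicates 1 to 4, each above the 95th percentile of that array's negative controls. By the scanner software's less strict flag, which asks for a signal positive and significant against background, this probe passed on all 4 arrays. So did 61.7% of the named genes, counted by any of their probes on each array. Replicates 1 and 2 both had a level of -2.88, and replicates 3 and 4 had -4.27 and -4.05. That is the reverse of the split in Gadd45a and Phlda3, but none of these signals was well above background.

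The second Fas probe, A_64_P131736, had an intensity of 2.893, 3.979, 3.094 and 4.872 on replicates 1 to 4 and passed the less strict flag on 3 arrays. On replicates 1 and 3 it was below the 95th percentile of the negative controls. Rrm2b, the p53-induced subunit of ribonucleotide reductase that supplies nucleotides for repair outside S phase, had an intensity of 2.515, 2.43, 3.051 and 2.295. All 4 values were under that percentile, and the gene passed neither flag on any array. Of the 4 probes of Btg2, Fas and Rrm2b, A_44_P463745 was thus the one above that percentile on every array.

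**Figure D3:**
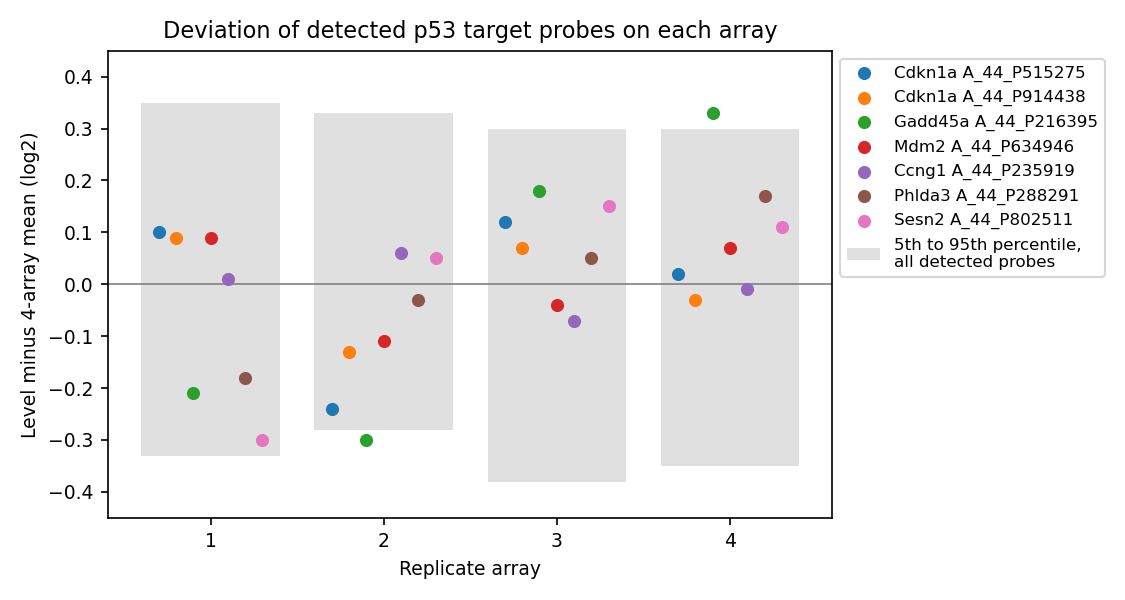
Deviation of each detected p53 target probe from its own 4-array mean, in log2 units, on the 4 replicate arrays. Grey bars span the 5th to 95th percentile of the deviations of all 17093 detected probes. Gadd45a lies at -0.30 on replicate 2 and 0.33 on replicate 4, outside the grey bars on both arrays, and Ccng1 stays between -0.07 and 0.06.

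The 7 detected probes did not move as one group over the arrays. Replicate 2 was the lowest array for 4 of the 7, replicate 1 for 2, replicate 3 for 1 and replicate 4 for 0. Among all 17093 detected probes, replicate 2 was lowest for 23.7%, replicate 1 for 21.5%, replicate 3 for 25% and replicate 4 for 29.8%. The highest array was replicate 1 for 2 probes, replicate 2 for 1, replicate 3 for 2 and replicate 4 for 2. The median deviation of the 7 probes ranged from -0.11 on replicate 2 to 0.07 on replicates 3 and 4, a range that holds 2 probes of the same gene.

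The members agreed between replicates about as closely as detected probes in general. The median SD of the 7 probes was 0.149, or 1.109-fold, with a range of 0.054 to 0.301, and the median over all detected probes was 0.175, with 0.062 and 0.445 as its 5th and 95th percentiles. Without replicate 2 the median SD of the 7 probes was 0.070, against 0.173 over all detected probes. With each array scaled to its median, both values were larger, at 0.385 for the members and 0.388 for all detected probes.

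**Figure D4:**
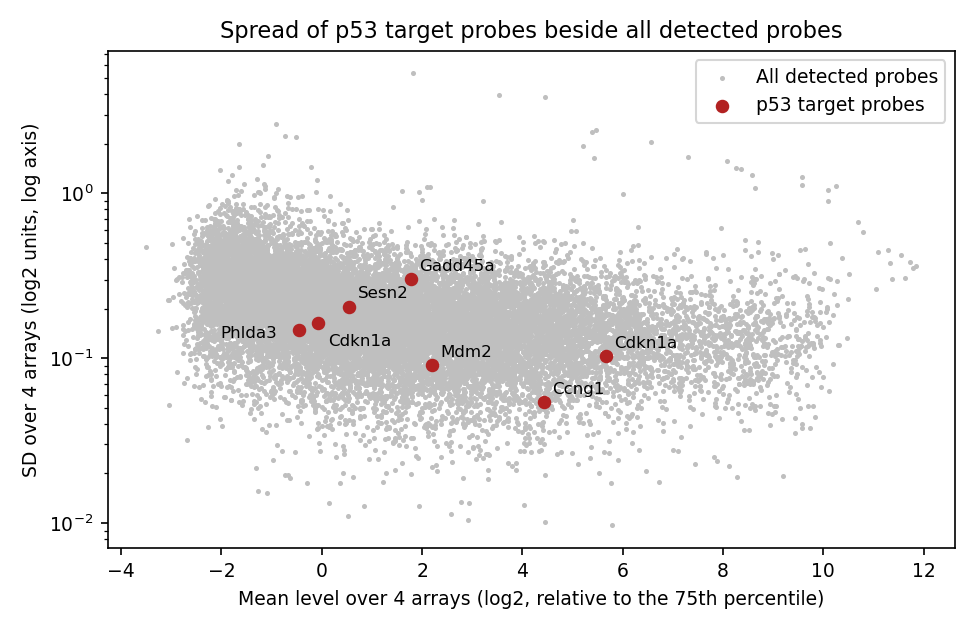
SD over the 4 arrays (log2 units, log axis) against the mean level for all 17093 detected probes, with the 7 detected p53 target probes in red. Gadd45a, at an SD of 0.301, is in the upper part of the cloud, and Ccng1, at 0.054, near its lower edge.

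The wider p53 network was described through 7 further gene lists. Of their 70 measured genes, 55 were well above background on all 4 arrays (78.6%) and 12 on none, beside 50.8% and 36.9% of all named genes. These counts describe exposed cells and were not tested.

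Among the p53 family and its upstream regulators, 10 of 14 measured genes were well above background on all 4 arrays. Mdm4, the relative of MDM2 that blocks p53's activation domain, had a mean level of 2.25 ± 0.34 and Atm, the kinase that responds to DNA double-strand breaks, one of -0.85 ± 0.24 (SD, n = 4 for both). Each rested on 1 probe, of 3 for Mdm4 and of 2 for Atm, and the means over all their probes were -1.06 and -2.71. Chek2, the checkpoint kinase that phosphorylates p53 downstream of ATM, had a mean of -1.21 ± 0.30 (SD, n = 4). Chek1, Tp73, Cdkn2a and Tp53bp1 were well above background on no array.

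Of the further p53 targets of cell death 8 of 10 measured genes were well above background on all 4 arrays. Of those of growth arrest and p53 feedback 3 of 7 were, a difference that was not tested. Both lists leave out the members. Cdkn1a and Gadd45a, detected on all 4 arrays, and Btg2 and Fas, detected on none, are therefore not counted in them. Bax, the pore-forming BCL2 protein, had a mean level of 6.08 ± 0.04, and Bbc3, which encodes the BH3-only protein PUMA, one of 3.42 ± 0.13 (SD, n = 4 for both). Over both Bax probes the mean was 5.48. Aen, a nuclease of apoptotic cells, was at 4.65 ± 0.12 and Tp53inp1, which promotes p53's death response, at -1.44 ± 0.35 (SD, n = 4 for both). Pmaip1, the gene of NOXA, was well above background on no array, and Perp on 1. In the growth-arrest list the kinase gene Plk3 had a mean of 1.67 ± 0.14, the antiproliferative gene Tob1 one of -0.49 ± 0.18 and the early-response gene Ier5 one of 4.37 ± 0.15 (SD, n = 4 for all), with 1.82 over both Ier5 probes. Zmat3, Rprm and Trim8 were well above background on no array, and Plk2 on replicate 3 alone.

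All 10 measured targets of DNA repair, redox control and metabolism were well above background on all 4 arrays, and 8 were with bright regions of the arrays removed. Ddb2, which recognises ultraviolet damage, had a mean level of 2.77 ± 0.30, and Xpc, which recognises bulky lesions, one of -1.55 ± 0.52 (SD, n = 4 for both). Tigar, which lowers glycolytic flux, had one of 4.32 ± 0.07 and the autophagy gene Dram1 one of 0.66 ± 0.11 (SD, n = 4 for both). Over its 2 probes Tigar had a mean of 1.97. Xpc ranged from -1.98 on replicate 1 to -0.86 on replicate 2, an SD larger than that of any of the 7 detected member probes.

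Some relatives were detected where the member was not. Btg1, the closest relative of Btg2, had a mean level of 7.13 ± 0.18 (SD, n = 4) while Btg2 was not well above background, and Rrm1, the large subunit that pairs with Rrm2b, and Rrm2, the small subunit used in its place in S phase, were detected while Rrm2b was not. Both comparisons were singled out after their values were seen. Rrm1 rested on 1 of its 2 probes, whose joint mean was 0.68. Both Rrm2 probes passed, with a joint mean of 2.97. Gadd45b had a mean of -0.99 ± 0.14, Sesn3 one of -1.48 ± 0.33 and Ccng2 one of -1.58 ± 0.23 (SD, n = 4 for all). In all 8 of 11 relatives were well above background on all 4 arrays, Gadd45g was on 1, and Phlda2 and Cdkn1c were on none.

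The cyclins and kinases that p21 binds were present, with 9 of 10 well above background and Cdk6 on no array. Cdk2, the kinase of S-phase entry, had a mean level of 0.62 ± 0.24, its partner Ccne1 one of 2.92 ± 0.13, Ccna2 one of 2.23 ± 0.10 and Cdk4 one of 3.24 ± 0.14 (SD, n = 4 for all). Ccna2 rested on 1 of its 2 probes, whose joint mean was -0.08. Of the death receptor complex of Fas, 7 of 8 genes were well above background although Fas was not, and the exception was its ligand gene, Faslg. Fadd, the adaptor that binds the receptor, was at -0.90 ± 0.13, Casp8, the initiating protease, at -0.74 ± 0.31 and its inhibitor Cflar at 0.75 ± 0.27 (SD, n = 4 for all). Over both of its probes Cflar stood at -0.75, so its sign depends on the probe.

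**Figure D5:**
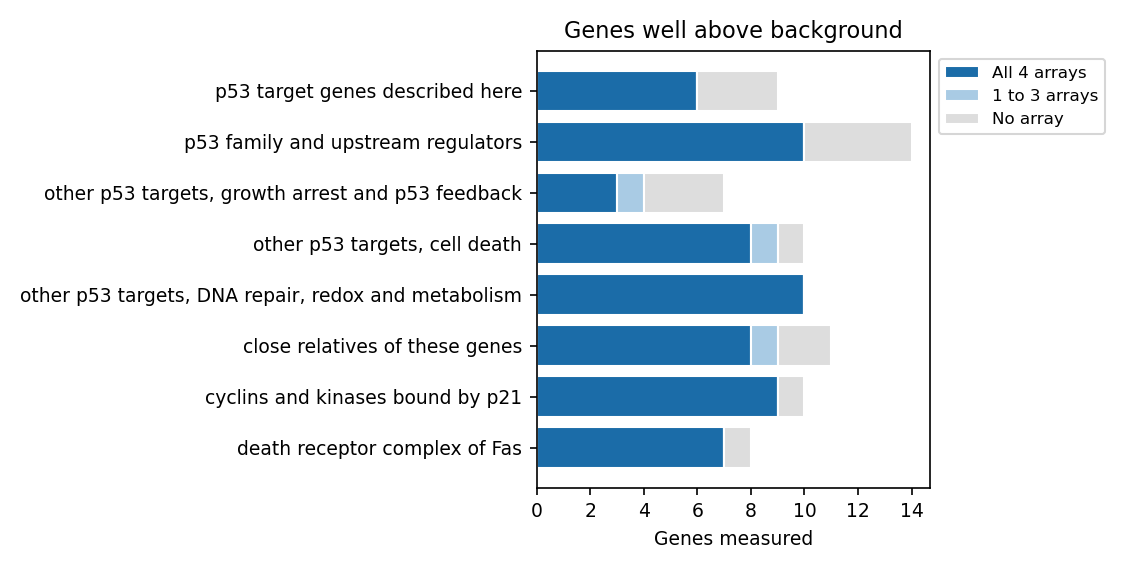
Number of measured genes well above background on all 4 arrays (dark), on 1 to 3 arrays (light) or on no array (grey), for the 9 p53 target genes and for each of 7 further lists. The list of DNA repair, redox and metabolism is complete at 10 of 10. That of growth arrest and p53 feedback, which leaves out the 9 genes, is lowest at 3 of 7.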

How the data were processed

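The deposited files give linear intensity per spot for 1 channel. The submitters' processing notes name Agilent Feature Extraction 11.0.1.1. The processed signal had its background removed within each array, per the file headers, and was not normalized between arrays. The grid was built on rn4. All 4 arrays share 1 slide and 1 scan, so neither could be tested as a batch. Flags of 0 or 1 per spot come from the same software, per the file headers.

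Probes were named by accession without version through the RefSeq table of GRCr8, which named 21109 of 45598 probes. Spots flagged as non-uniform or population outliers were left out, log2 signals averaged per probe, and each array's 75th percentile over non-control probes subtracted. A gene was detected where any probe was well above background. Members were given probe by probe. Of each list, the first 4 detected genes were named with the level of the probe with the highest mean, and a few genes that this rule names are not reported here. The motif was the p53 half-site, matched exactly.

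The members and lists were chosen with earlier results of these data known. With 1 group there is no test and no p-value, and a correlation over 4 arrays was not computed. The number of arrays limits the precision. Alternatives were other scalings, the flagged spots, bright regions, other detection rules and each replicate left out. Added after the data were seen were normexp with limma on the median signals (offset 50) and subtraction of neighbouring spots. A count or a median SD within 1.5 times the main value was taken as unmoved. The averaging and scaling were tested on simulated data. Calculations used Python 3.11.15 (pandas 2.3.3, numpy 2.4.6), figures matplotlib 3.10.9, and the normexp step limma 3.58.1 under R 4.3.3.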

Additional observations from a re-analysis of the deposited data

Results flagged for a closer look

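Among 40 results examined, the 11 member probes included, 3 had 1 array far from the other 3. Chance alone gives such an array in about 5% of groups of independent normal values. The 40 results share the same arrays, and 1 of the 3 was named after its values were seen. The rate is therefore not a test of these results. No member probe was among them. Aen, the nuclease gene, had a level of 4.47 on replicate 2 against 4.73, 4.71 and 4.69 on replicates 1, 3 and 4. Tigar had 4.21 on replicate 2 against 4.36, 4.34 and 4.35 on replicates 1, 3 and 4. Plk2, a p53-induced kinase gene named after its values were seen, had -0.83 on replicate 3 against -5.12, -5.10 and -4.62 on replicates 1, 2 and 4. Its single spot had an intensity of 56.69 on replicate 3, and it lies in a marked bright region where well-detected neighbours deviated by a median of 0.47 on that array. The part of that region in the value of Plk2 was not tested.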

How the results depend on the processing

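The count of member genes detected, 6 of 9, was 7 with the less strict flag and 6 under the other 8 alternatives. The 7 list counts stayed within 1.5 times under all 9. The median SD of the member probes was 0.385 with the array median as scaling point, and ranged from 0.070 to 0.174 when 1 replicate was left out, with 0.070 reached without replicate 2. Under the other 7 alternatives that keep all replicates the median SD stayed within 1.5 times. The mean levels of all 11 probes moved with the array median and with the 75th percentile over detected probes, and changed sign for 3 probes under each, since these settings shift the scaling point by construction. With normexp on the median signals 8 of 11 moved. No mean level moved by more than its SD under the other settings. Normexp on mean signals was not run, since the array data hold no column of mean signals. Bright regions were rebuilt as blocks of 16 rows and 8 columns, 30 in all, holding 6% of the spots. Signals near the negative controls limit what can be said of Btg2, Fas and Rrm2b. No paired analysis was possible because there is 1 group.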
